A study of Mus musculus with 8 samples.

Results

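The zinc transporter and metallothionein genes examined in sorted Paneth cells were Mt1, Mt2, Slc30a1, Slc30a2, Slc30a5, Slc30a7, Slc39a4, Slc39a5, Slc39a7 and Slc39a14. They were chosen by symbol as genes of zinc handling, with earlier results of these data known, and all 10 were found among the 53801 genes of the deposited count table. RNA was measured in Paneth cells of the small intestine from 4 beta-cateninGOF; Mll1+/- mice, called controls 1 to 4, and 4 beta-cateninGOF; Mll1-/- mice, called knockouts 1 to 4. The question is whether loss of the second allele of Mll1, a histone methyltransferase, goes along with a change in these genes. Both genotypes carry the activating deletion of exon 3 of beta-catenin and at least 1 deleted Mll1 allele, so no library comes from a mouse with unmodified Wnt signalling. Deletion is driven by Lgr5-EGFP-IRES-CreERT2, which acts in Lgr5+ stem cells and recombines crypts in a mosaic. According to the labels, tamoxifen was injected at 1 mg on 3 days, and cells were collected 10 d after induction, from mice that the methods give as 4 to 6 weeks old at induction. The paragraph of the methods on sorting names the Mll1 alleles without beta-cateninGOF, whereas the labels and the rest of the study include it for both groups. It calls the mice littermates, without tying samples to litters. The labels give control 4 and knockout 4 a single animal number between them, which 1 mouse could not have with both genotypes, so the mice behind these libraries are uncertain. No zinc gene was called with all libraries, without control 4 or without knockout 4, which cannot settle where these libraries came from. Leaving out both at once was not tested. EpCAM+ CD24+ cells, 300 per sample, were amplified with Smart-seq2, a protocol that copies polyadenylated RNA and amplifies it by PCR.

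Paneth cells secrete antimicrobial peptides from granules that hold large amounts of zinc. Cytosolic zinc is set by Slc39 (ZIP) proteins, which bring zinc into the cytosol from outside or from organelles, and by Slc30 (ZnT) proteins, which move it out of the cell or into vesicles and the secretory pathway. Metallothioneins are small cysteine-rich proteins that bind zinc and copper in the cytosol, and the zinc-sensing transcription factor Mtf1 is known to switch on Mt1, Mt2 and Slc30a1 through metal response elements in their promoters.

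Totals per library lay between 13037832 and 14380240 counts, of which Paneth markers made up 30.6% to 47.3%. The 10 zinc genes together received 1201 to 2897 counts per library, which is 89.2 to 222 CPM before TMM scaling. Knockout 3 stood apart, with 19662 genes detected against 22623 to 26074 in the other libraries and a mitochondrial share of 2.04% against 3.26% to 8.78%, so results that rest on it are also given without it. The count of Kmt2a, the gene of Mll1, was 22.4 to 45.1 normalized CPM in controls and 25.7 to 38.5 in knockouts, and since this sums all exons of the gene it does not check the deleted ones. Normalized CPM here are counts divided by library sizes scaled by TMM, which corrects for a few very abundant genes taking a larger share of some libraries. The labels carry 2 runs of library numbers, and controls 1 and 2 with knockouts 1 and 2 form the first, called a library set. Y-linked genes summed to 881 counts in control 3, 1243 in knockout 1, 1375 in knockout 2 and 148 in knockout 3, against 6 to 22 in the other 4 libraries, so these libraries were not balanced between the genotypes, and knockout 3 also had 1037 counts of Xist.

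In normalized CPM per kb of exon, the scale on which genes can be set against each other, Mt1 had the highest mean over the 8 libraries at 20.5 ± 3.99 (SD, n = 8), above 94.2% of tested genes. Slc30a2, the transporter that loads zinc into secretory vesicles, followed at 12.4 ± 6.79 and exceeded 90.9% of tested genes. Mt2 came next at 4.15 ± 2.53. These neighbours overlapped, since Mt1 was above Slc30a2 in 6 of 8 libraries and Slc30a2 above Mt2 in 6 of 8. Slc39a4 and Slc30a5 were close to each other, at 2.53 ± 0.571 and 2.34 ± 0.349, and their order held in 5 of 8 libraries. Slc39a5 at 1.43 ± 0.605 and Slc30a7 at 1.38 ± 0.40 could not be ordered, because Slc39a5 was the higher in 2 of 8 libraries. Slc39a14 had 1.11 ± 0.27 and Slc30a1, the exporter of the plasma membrane, 0.636 ± 0.314, which is above 25.2% of tested genes. Slc39a7, which releases zinc from the endoplasmic reticulum, was last at 0.0181 ± 0.0318 and received at most 2 counts in a library. Exon lengths are those of all annotated transcripts merged, so genes with exons that these cells do not use are set too low.

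**Figure D1:**
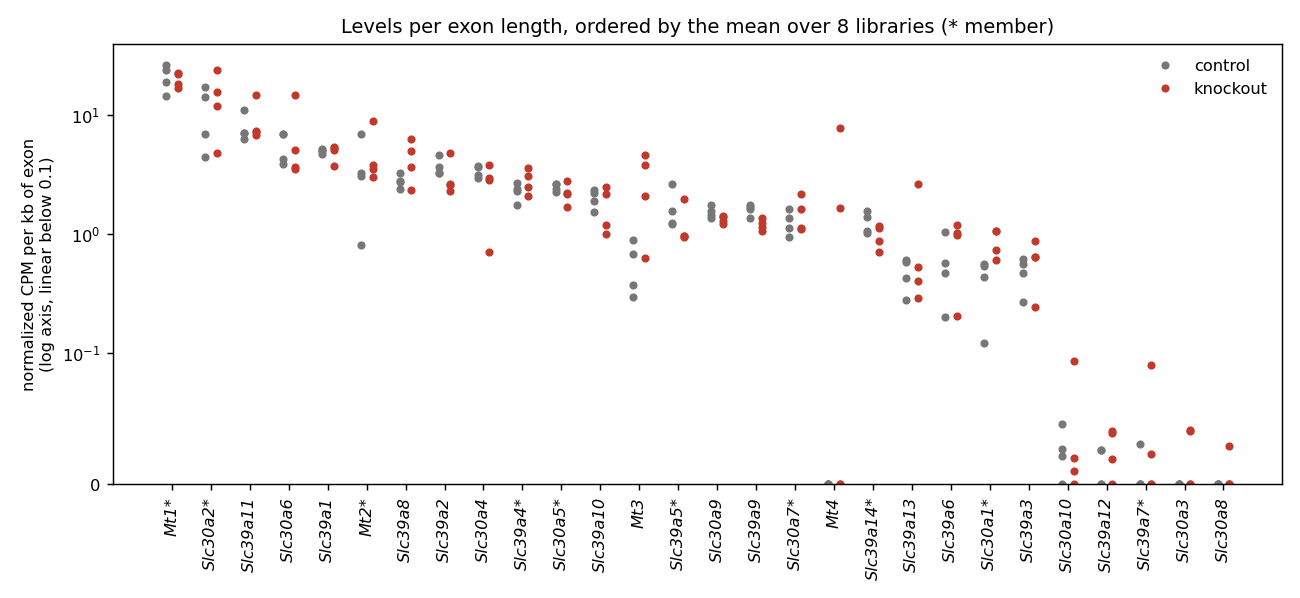
Level of each Slc30, Slc39 and metallothionein gene in normalized CPM per kb of exon (log axis, linear below 0.1), ordered by the mean over 8 libraries; each point is a library, grey for control and red for knockout, and an asterisk marks the 10 genes examined. Mt1 (mean 20.5) and Slc30a2 (12.4) stand at the top and Slc39a7 (0.0181) near the bottom, and control and knockout points overlap for most genes.

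The annotation sets limits on some of these levels. Mt2 (ENSMUSG00000031762, mm10 chr8:94172664-94173568, plus strand) shares 73.47% of its 588 exon bases with the antisense gene Gm45774, which had at most 2 counts per library. Slc39a7 (ENSMUSG00000024327, chr17:34028267-34031690, minus strand) shares 80.11% of its exon bases with Gm20427 on the same strand, which had at most 3 counts. How reads on shared bases were counted is not given in the sources used here, so the levels of Mt2 and Slc39a7 are uncertain, and the near absence of Slc39a7 counts cannot be read as absence of its RNA. Slc30a7 (ENSMUSG00000054414, chr3:115938973-116007406, minus strand) shares 16.01% of its exon bases, most of them with the antisense Gm6649, which had 0 counts in every library, and Slc30a1 (ENSMUSG00000037434, chr1:191906767-191913247, plus strand) shares 8.92% with the antisense 1700034H15Rik, which had at most 8. The other 6 genes share no exon base. They are Mt1 (ENSMUSG00000031765, chr8:94179082-94180327, plus strand), Slc30a2 (ENSMUSG00000028836, chr4:134343181-134354484, plus strand), Slc30a5 (ENSMUSG00000021629, chr13:100802648-100833427, minus strand), Slc39a4 (ENSMUSG00000063354, chr15:76612383-76617384, minus strand), Slc39a5 (ENSMUSG00000039878, chr10:128395931-128401229, minus strand) and Slc39a14 (ENSMUSG00000022094, chr14:70303469-70351425, minus strand). Mt1 and Mt2 lie next to each other on chromosome 8, with Mt3 and Mt4 upstream of them.

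Windows before the RefSeq starts of the textbook Mtf1 targets are shown, because zinc is known to act on these genes through metal response elements in their promoters. Whether the printed windows hold those elements was not tested. Each window holds the 250 bases before the RefSeq start on GRCm38.p6, read 5′ to 3′ on the strand of the gene, and capitals mark matches on either strand to the 7-base cores TGCACNC and TGCGCNC of the metal response element. RefSeq windows were at hand for 8 of the 10 genes, all but Slc39a4 and Slc39a14.
Mt1, chr8:94178839-94179088, plus strand: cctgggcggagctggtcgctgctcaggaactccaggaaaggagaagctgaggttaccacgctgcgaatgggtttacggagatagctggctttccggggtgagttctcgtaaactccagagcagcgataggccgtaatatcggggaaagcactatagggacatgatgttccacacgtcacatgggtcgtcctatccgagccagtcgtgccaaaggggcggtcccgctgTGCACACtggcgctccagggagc
Mt2, chr8:94172368-94172617, plus strand: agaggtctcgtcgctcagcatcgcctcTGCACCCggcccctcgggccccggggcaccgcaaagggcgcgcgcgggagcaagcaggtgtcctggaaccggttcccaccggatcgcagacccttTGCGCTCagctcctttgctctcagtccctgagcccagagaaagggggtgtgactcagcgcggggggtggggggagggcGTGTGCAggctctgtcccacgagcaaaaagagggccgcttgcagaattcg
Slc30a1, chr1:191906531-191906780, plus strand: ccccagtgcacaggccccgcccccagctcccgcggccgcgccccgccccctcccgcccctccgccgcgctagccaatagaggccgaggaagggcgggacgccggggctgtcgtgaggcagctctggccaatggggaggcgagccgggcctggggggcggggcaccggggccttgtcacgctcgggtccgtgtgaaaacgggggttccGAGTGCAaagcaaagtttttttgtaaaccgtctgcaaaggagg

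The Mt1 window held 1 match, 23 to 17 bases before the start. In the Mt2 window there were 3 matches, which lay 223 to 217, 128 to 122 and 50 to 44 bases before the start, the last of them on the opposite strand. Slc30a1 had 1 match on the opposite strand, 43 to 37 bases before the start. Of 32851 windows of the same length in the genome, 21.41% held at least 1 match and 1.263% at least 3. Slc30a5 and 1 of the 2 windows of Slc39a5 also held 1 match each and Slc30a2 held 2, in a window that lies downstream of an annotated transcript start at 134343181, while the windows of Slc30a7 and Slc39a7 held none. In the gene annotation, Mt1 transcripts begin at 94179082, inside the printed window, and at 94179211 and 94179241, downstream of it. The annotated Mt2 transcripts begin at 94172664 and 94172860, both downstream of the printed window. Those of Slc30a1 begin at 191906767, inside its printed window, and at 191907256, downstream of it. A match is a description of the letters and not evidence of a bound site.

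When knockouts were compared with controls, none of the zinc genes was called, a call being an adjusted p no higher than 0.05 and a log2 fold change beyond 0.5 either way. Enough counts for the test were found for 9 of the 10 genes, all but Slc39a7, and 0 of the 9 were called by edgeR's quasi-likelihood test, by DESeq2's Wald test or by limma-voom. Over all 13439 genes tested with edgeR 0.186% were called. At an unadjusted p under 0.05 there was 1 gene of the 9, Slc30a1, which is 11.1% against 6.88% of all tested genes. Slc30a1 was also the gene, 1 of 9, whose control and knockout libraries did not overlap, against 4.52% of all tested genes, and both shares rest on this 1 gene. The log2 fold changes of the 9 genes ran from -0.50 to 1.07 with a median of 0.25, 5 of them above 0, beside a median of 0.01 over all tested genes. Without knockout 3, a check added after the data were seen, 5 were again above 0 but their median was 0.02, beside -0.01 over all tested genes. Adjusted p values of the 9 lay between 0.671 and 0.991 (edgeR's quasi-likelihood test with Benjamini-Hochberg adjustment).

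**Figure D2:**
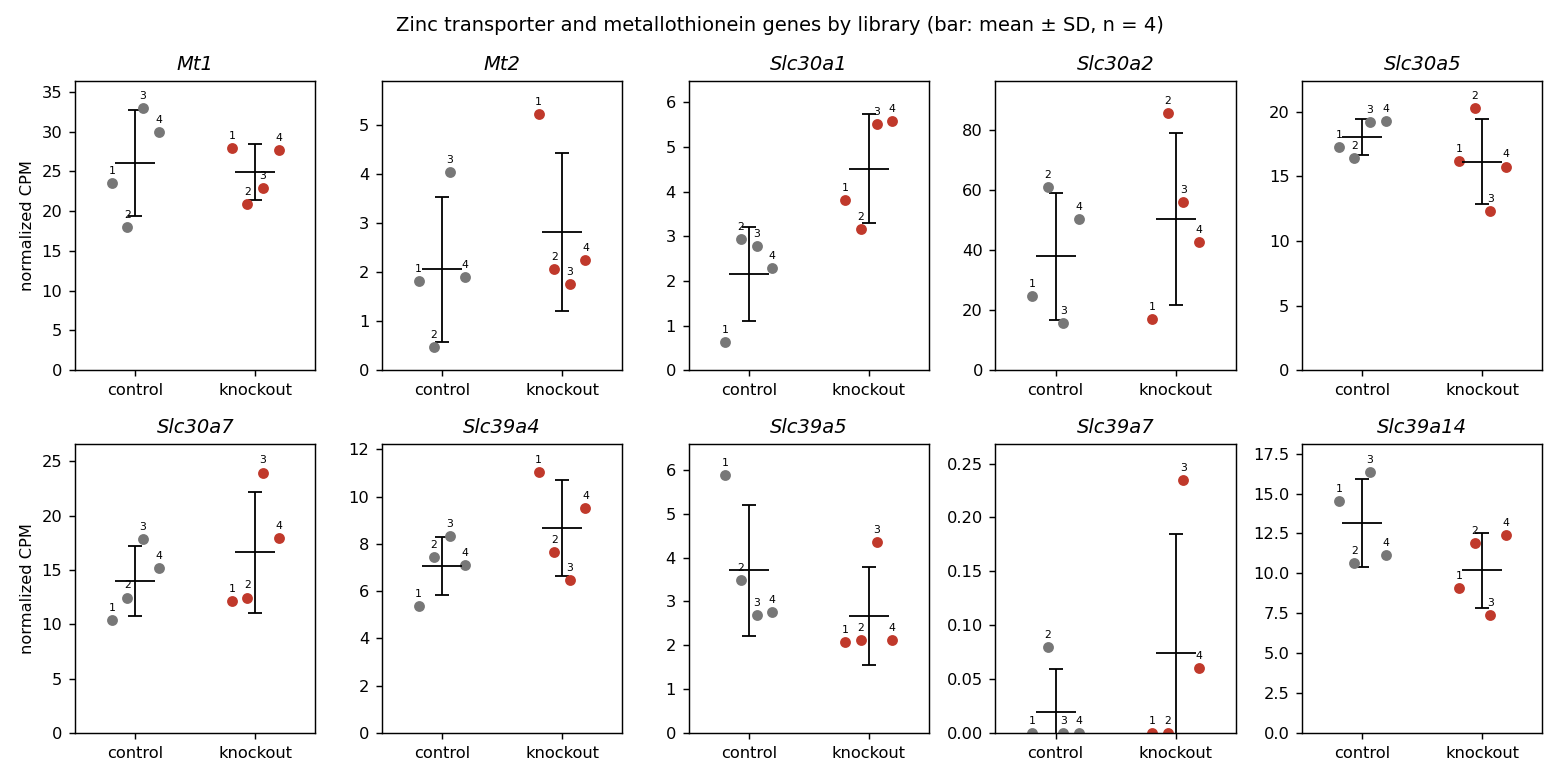
Normalized CPM of the 10 zinc genes in each library, 4 controls (grey) and 4 knockouts (red), numbered by replicate, with the mean and SD of each genotype as horizontal and vertical bars. The genotypes overlap in 9 of the 10 panels, and in the Slc30a1 panel the knockouts (3.16 to 5.58) lie above the controls (0.627 to 2.94).

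Among the metallothioneins, the knockouts of Mt1 lay within the range of the controls and Mt2 varied widely within each genotype. Mt1 had 23.5, 18.0, 32.9 and 29.9 normalized CPM in controls 1 to 4 and 28.0, 21.0, 22.9 and 27.7 in knockouts 1 to 4. Controls 2 and 3 were the lowest and the highest of all 8 libraries. The means were 26.1 ± 6.67 and 24.9 ± 3.51 (SD, n = 4 each), which differed by a log2 fold change of -0.07 (SE 0.21, 95% interval -0.48 to 0.35, exact permutation p = 0.857). Mt2 had 1.82, 0.476, 4.04 and 1.89 normalized CPM in controls and 5.23, 2.07, 1.76 and 2.24 in knockouts, resting on 6 to 88 raw counts. Knockout 1 and control 3 were high, control 2 was low, and the genotypes overlapped. For Mt2 this gave a log2 fold change of 0.47 (SE 0.58, 95% interval -0.66 to 1.61, exact permutation p = 0.371). Its log2 difference was 1.73 in the first library set and -0.46 in the second, and leaving out 1 library moved the log2 fold change from -0.0008 without knockout 1 and 0.15 without control 2 to 1.02 without control 3, so its size rests on single libraries.

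Upstream of Mt2 on chromosome 8, the counts of Mt3 and Mt4, metallothioneins best known from brain and from stratified epithelia, were low in most libraries. Mt3 had 5, 5, 8 and 12 raw counts in controls and 82, 71, 19 and 11 in knockouts. In normalized CPM the controls lay between 0.313 and 0.947 and the knockouts between 0.667 and 4.87, so that knockout 4 overlapped the controls. Of the controls, control 4 alone reached the minimum count of 10, so Mt3 passed the filter on low counts through the knockouts. It was therefore likely to differ, and its values are given as a description. Its log2 fold change was 2.32 (SE 0.64), with an adjusted p of 0.35 in edgeR's quasi-likelihood test with Benjamini-Hochberg adjustment, and it was 2.44 with an adjusted p of 0.125 without knockout 3. Within the first library set its log2 difference was 3.41 and within the second 0.54. Mt4 had 11 counts in knockout 1 and 54 in knockout 2 and 0 in every other library, which was too few to be tested, and 3 counts correspond to 0.172 to 0.352 normalized CPM depending on the library. Both libraries with Mt4 counts were the 2 with the most Mt3 counts. They belong to the first library set and had the 2 highest Y-linked sums, whose part in these values was not tested.

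**Figure D3:**
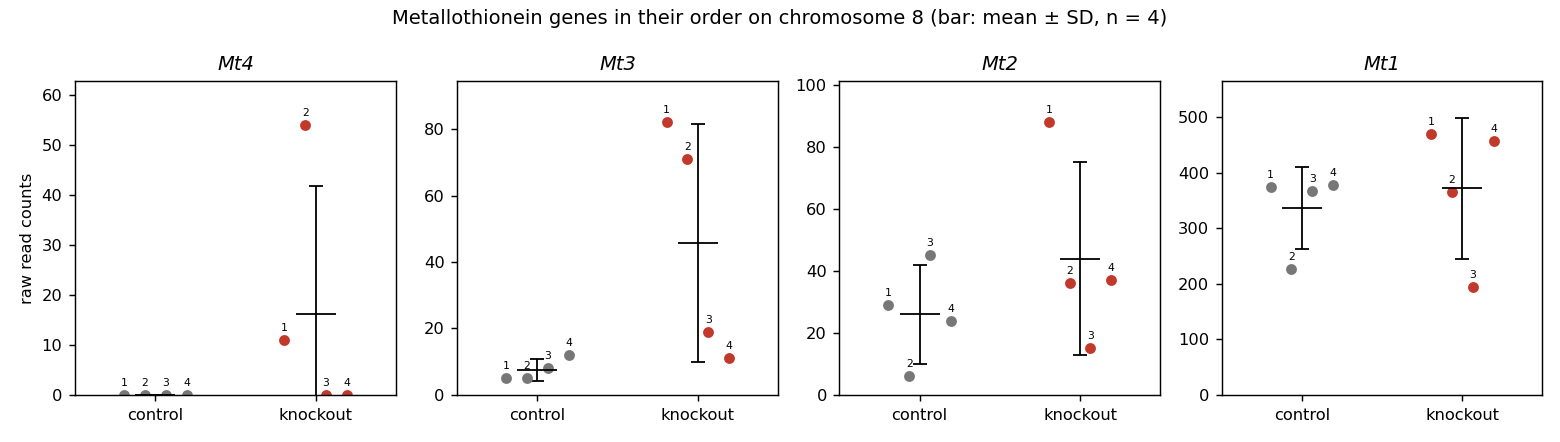
Raw read counts of Mt4, Mt3, Mt2 and Mt1 in their order along chromosome 8, for 4 controls (grey) and 4 knockouts (red) numbered by replicate, with mean and SD bars. Knockouts 1 and 2 hold the Mt4 counts (11 and 54) and the highest Mt3 counts (82 and 71), while Mt1 counts overlap between the genotypes.

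Of the Slc30 genes, Slc30a1 had the highest log2 fold change. Slc30a1, which exports zinc across the plasma membrane, had 0.627, 2.94, 2.78 and 2.29 normalized CPM in controls and 3.80, 3.16, 5.52 and 5.58 in knockouts. Every knockout was above every control, with control 2 and knockout 2 nearest to each other. The means of 2.16 ± 1.06 and 4.52 ± 1.22 (SD, n = 4 each) gave a log2 fold change of 1.07 (SE 0.45, 95% interval 0.18 to 1.96). The unadjusted p was 0.037 and the adjusted p 0.671 in edgeR's quasi-likelihood test with Benjamini-Hochberg adjustment, while the exact permutation p of 0.02857 is the smallest that 8 libraries can give. The log2 differences were 1.29 in the first library set and 1.12 in the second. The first leaned on control 1, with 10 raw counts and 0.627 normalized CPM. Control 2 at 2.94 was nearer to knockouts 1 and 2 at 3.80 and 3.16 than to control 1. Without control 1 the log2 fold change was 0.75. The difference over all libraries rested on 10 to 37 raw counts in controls and 47 to 92 in knockouts. Leaving out 1 library gave log2 fold changes of 0.75 to 1.26, and an unadjusted edgeR p above 0.05 without control 1, control 4, knockout 3 or knockout 4 (0.0628, 0.0619, 0.052 and 0.0933).

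Slc30a2, the gene known for filling Paneth granules with zinc, varied most among the 4 zinc genes with over 100 counts in every library, the others being Mt1, Slc30a5 and Slc30a7. It had 24.7, 60.9, 15.9 and 50.3 normalized CPM in controls and 17.2, 85.7, 56.2 and 42.6 in knockouts, so the highest library was 5.40-fold above the lowest. Controls 1 and 3 and knockout 1 were low, and each genotype held both low and high libraries. The log2 fold change was 0.41 (SE 0.48, 95% interval -0.52 to 1.34, exact permutation p = 0.629), and the log2 difference was -0.02 in the first library set and 0.79 in the second. Leaving out 1 library gave 0.02 without knockout 2, 0.15 without control 3 and up to 0.73 without control 2, so this value too rests on single libraries.

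Slc30a5 and Slc30a7, which load zinc into the early secretory pathway, varied less. Slc30a5 had 17.3, 16.4, 19.2 and 19.3 normalized CPM in controls and 16.2, 20.3, 12.3 and 15.8 in knockouts. Knockout 3 was the lowest and knockout 2 the highest of the 8, with the controls between them. Its log2 fold change was -0.16 (SE 0.19, 95% interval -0.53 to 0.22, exact permutation p = 0.314). Slc30a7 had 10.4, 12.5, 17.9 and 15.2 normalized CPM in controls and 12.1, 12.5, 24.0 and 17.9 in knockouts, and the libraries of the second set were above those of the first in both genotypes. Slc30a7 had a log2 fold change of 0.25 (SE 0.26, 95% interval -0.27 to 0.76, exact permutation p = 0.457). Leaving out 1 library, Slc30a5 ranged from -0.29 without knockout 2 to -0.05 without knockout 3, and Slc30a7 from 0.02 without knockout 3 to 0.385 without control 3.

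Among the Slc39 importers no gene passed the test, and Slc39a4 and Slc39a5 lay on opposite sides of 0. Slc39a4, the importer of the apical membrane that takes up dietary zinc and is mutated in acrodermatitis enteropathica, had 5.39, 7.46, 8.35 and 7.10 normalized CPM in controls and 11.1, 7.64, 6.46 and 9.52 in knockouts. Knockouts 1 and 4 were above all controls and knockouts 2 and 3 within their range. Slc39a4 thus had a log2 fold change of 0.30 (SE 0.25, 95% interval -0.20 to 0.80, exact permutation p = 0.257). It was 0.17 without knockout 1 and 0.18 without control 1, and the log2 difference was 0.53 in the first library set and 0.03 in the second.

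Slc39a5, an importer of the basolateral membrane, had 5.89, 3.49, 2.69 and 2.76 normalized CPM in controls and 2.08, 2.13, 4.35 and 2.12 in knockouts. Knockouts 1, 2 and 4 lay below every control and knockout 3 above 3 of the 4 controls. The log2 fold change was -0.50 (SE 0.40, 95% interval -1.28 to 0.28, exact permutation p = 0.2). Without knockout 3, the library that stands apart, it was -0.82 (SE 0.36) and the genotypes no longer overlapped, with an unadjusted p of 0.0407 and an adjusted p of 0.417 in edgeR's quasi-likelihood test with Benjamini-Hochberg adjustment. Without that library 11.1% of all tested genes had an unadjusted p under 0.05 and in 11.0% the genotypes did not overlap. Without control 1, which had 94 raw counts against 30 to 44 in the other controls, the log2 fold change was -0.18 (unadjusted edgeR p 0.67). The log2 difference was -1.08 in the first library set and 0.15 in the second, so its direction was not the same in both. The knockouts had 35 to 37 raw counts.

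Slc39a14, which carries zinc, iron and manganese across the plasma membrane, had 14.5, 10.6, 16.3 and 11.1 normalized CPM in controls and 9.09, 11.9, 7.40 and 12.4 in knockouts. Knockouts 1 and 3 were below all controls and the genotypes overlapped. The log2 fold change was -0.36 (SE 0.24, 95% interval -0.83 to 0.11, exact permutation p = 0.171), and it was -0.24 without knockout 3, the lowest library. For Slc39a7 raw counts were 0, 1, 0 and 0 in controls and 0, 0, 2 and 1 in knockouts, at which no difference could be detected.

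Of 18 other genes of the 3 families 13 were tested and 0 were called by edgeR, with 3 at an unadjusted p under 0.05 and 0 with separate genotypes. Over all tested genes the shares were 0.186% called, 6.88% at that p and 4.52% with separate genotypes. Mt3, among the 3, passed the filter on low counts through the knockouts. The 13 log2 fold changes had a median of 0.20 with 7 above 0, but without knockout 3 the median was -0.08 with 4 above 0, so these directions rest on that library. Of the other Slc30 genes 3 of 6 were tested, with 1 above 0 and a median of -0.21 (0 and -0.20 without knockout 3). Of the other Slc39 genes 9 of 10 were tested, with 5 above 0 and a median of 0.20 (3 and -0.08 without knockout 3). The genes at an unadjusted p under 0.05 were Mt3, Slc39a8 and Slc39a9. Without knockout 3 they were Mt3 and Slc39a2, while 11.1% of all tested genes were under that limit. Slc39a8, which transports zinc and manganese, had 18.3, 24.9, 21.3 and 20.8 normalized CPM in controls and 27.9, 38.4, 48.3 and 18.0 in knockouts. Knockout 4 was the lowest of all 8 libraries and the other knockouts were above every control. Slc39a8 had a log2 fold change of 0.63 (SE 0.27, adjusted p 0.671 by edgeR's quasi-likelihood test with Benjamini-Hochberg adjustment), and 0.40 with an unadjusted edgeR p of 0.105 without knockout 3. Slc39a9 had 13.7 to 17.6 normalized CPM in controls and 10.6 to 13.9 in knockouts, which overlapped through control 3 and knockout 2, and a log2 fold change of -0.42 (SE 0.18, adjusted p 0.696 in the same test). Without knockout 3 its unadjusted edgeR p was 0.0549. Slc39a2 had 11.3 to 15.9 normalized CPM in controls, 16.5 in knockout 3 and 7.84 to 9.10 in the other knockouts, and a log2 fold change of -0.28, which was -0.56 (unadjusted edgeR p 0.0176) without knockout 3.

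**Figure D4:**
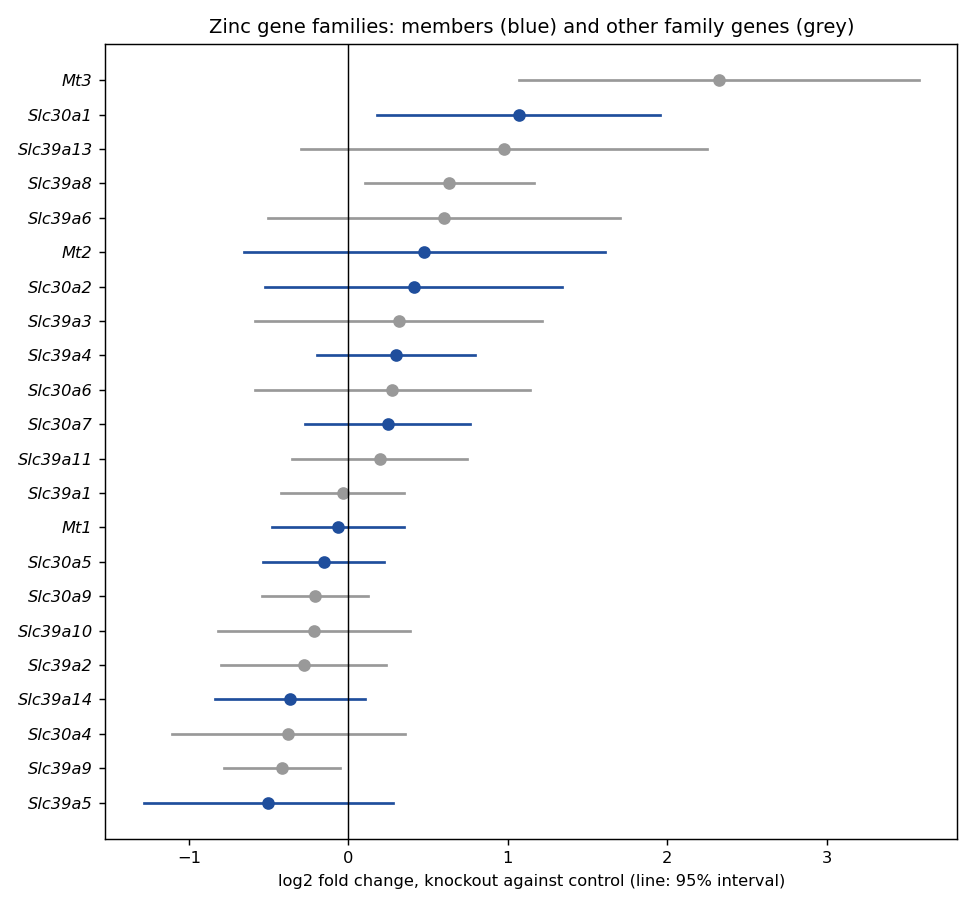
Log2 fold change of knockout against control for the 9 tested zinc genes (blue) and 13 other tested genes of the same families (grey), ordered by size, with lines for the 95% interval from edgeR's standard errors. The lines of Slc30a1, Mt3, Slc39a8 and Slc39a9 do not cross 0 before adjustment, and no gene shown passed the adjusted threshold. Mt3 passed the filter on low counts through the knockouts, so its line is a description.

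By level per kb of exon, the leading other family genes were Slc39a11, Slc30a6 and Slc39a1, at 8.49, 6.12 and 4.94 normalized CPM per kb. They stood between Slc30a2 and Mt2. Knockout 3 was the highest library for Slc39a11 at 49.8 normalized CPM and for Slc30a6 at 31.8, where the other libraries had 7.69 to 15.2.

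The zinc genes were also compared with each other across the 8 libraries, over 36 pairs of the 9 tested genes. Of the Pearson correlations of log2 normalized CPM 18 were positive and 18 negative, and 0 had an adjusted exact permutation p of at most 0.05. The most negative correlation was that of Slc39a4 and Slc39a5, with a Pearson r of -0.871 (exact permutation p = 0.00404, Benjamini-Hochberg adjusted 0.146) and a Spearman rho of -0.952 (exact permutation p = 0.00114, adjusted 0.0411). The Pearson r of this pair was -0.862 within the first library set and -0.901 within the second, on 4 libraries each, -0.856 without knockout 3 and -0.756 without control 1 and knockout 1, the 2 libraries farthest from the median of Slc39a4. Without knockout 3 no adjusted Spearman p of the pairs stayed at or below 0.05. Mt1 and Mt2 had an r of 0.788 (exact permutation p = 0.0198, adjusted 0.356) and a rho of 0.691 (exact permutation p = 0.0694, adjusted 0.495). Their r was 0.943 in the first library set and 0.759 in the second, but 0.388 without controls 2 and 3, so that the relation rests on those libraries. Libraries of 1 genotype share their group level in these correlations, and all 8 share the scaling.

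**Figure D5:**
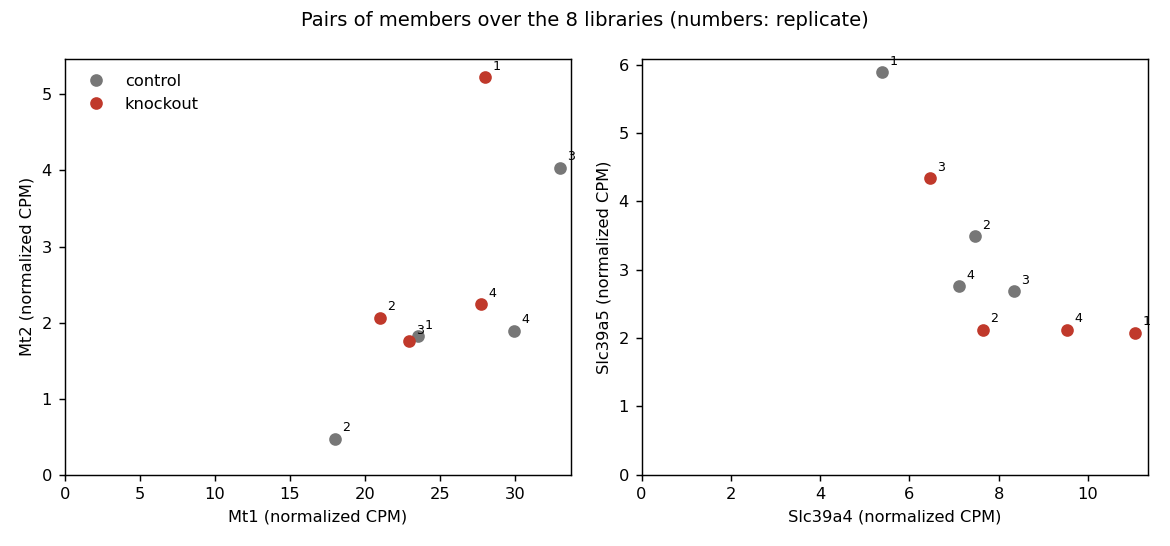
Normalized CPM of Mt2 against Mt1 and of Slc39a5 against Slc39a4 in 8 libraries, grey for control and red for knockout, numbered by replicate. Controls 2 and 3 mark the low and high ends for Mt1, and Slc39a5 is lowest (2.08) in knockout 1, where Slc39a4 is highest (11.1).

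Among 4329 tested genes with a mean of at least 10 normalized CPM, the genes whose levels over the 8 libraries were most like those of Mt1 were Pex7, Itprid2 and Setd7, with a Pearson r of 0.963, 0.925 and 0.913. For Mt2 they were Krit1, Arfgef1 and Cops2, with 0.959, 0.935 and 0.914. Those nearest to Slc30a2 were Yars, Vcp and Atxn2 at 0.868, 0.840 and 0.838. These genes were picked as the highest of many correlations, so no test is given.

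Genes that sense zinc or metals, or are used as readouts of stress, were read beside the zinc genes. Of 10 zinc-sensing and zinc-binding genes 5 were tested, 1 above 0 and 4 below, with a median log2 fold change of -0.11 and 0 calls by edgeR. The 1 above 0 was Gpr39, whose direction was set by the filter on low counts, so this count and median include a value fixed in advance. The 4 below 0 ran from -0.56 to -0.09. Gpr39, a receptor for extracellular zinc, had 0.159 to 0.627 normalized CPM in controls and 0.747 to 2.70 in knockouts, on 2 to 23 raw counts. It passed the filter on low counts through the knockouts alone, so that it had to differ, and its log2 fold change of 1.69 (SE 0.66), 1.11 without knockout 3, is given as a description. It shares 39.9% of its exon bases with the antisense Lypd1. Mtf1, the zinc-sensing factor, had a log2 fold change of -0.56 (unadjusted edgeR p 0.173).

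Of 12 genes of iron and copper transport all were tested, 6 above 0 and 6 below with a median log2 fold change of 0.03 and 0 calls by edgeR, and without knockout 3 there were 7 above 0 with a median of 0.20. With all libraries 6.88% of all tested genes had an unadjusted p under 0.05 and 4.52% had separate genotypes. Fth1, the heavy chain of the iron store ferritin, was the member of the iron and copper list with an unadjusted p under 0.05. It had 332, 544, 516 and 489 normalized CPM in controls and 766, 840, 705 and 701 in knockouts, so all knockouts were higher. Its log2 fold change was 0.68 (SE 0.21, edgeR quasi-likelihood p adjusted by Benjamini-Hochberg 0.452, exact permutation p = 0.02857), and 0.71 without knockout 3. Of 13 stress and glucocorticoid response genes, read because stress and glucocorticoids are known to induce metallothioneins, 12 were tested, 9 above 0 and 3 below with a median of 0.33 and 0 calls. Their summed level was 299 to 539 normalized CPM in controls, 782 in knockout 3 and 476 to 502 in the other knockouts, which is within the range of the controls. Without knockout 3 there were 6 above 0 and 6 below. With all libraries Atf3 alone had an unadjusted p under 0.05 (log2 fold change 1.15, SE 0.37, edgeR quasi-likelihood p adjusted by Benjamini-Hochberg 0.473).

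Markers of cell types were counted for the sorted cells, since in bulk RNA fewer cells of a type and less RNA per cell cannot be told apart. None of the marker lists held a call by edgeR. For the counts below, 6.88% of all tested genes had an unadjusted p under 0.05 with all libraries, and 11.1% without knockout 3. All 10 Paneth markers were tested, 3 above 0 and 7 below with 0 at an unadjusted p under 0.05, and their summed level was 266400 to 524500 normalized CPM in controls, 748200 in knockout 3 and 242600 to 328400 in the other knockouts. Without knockout 3 there were 9 of 10 Paneth markers below 0, with a median of -0.57 and 4 at an unadjusted p under 0.05. Goblet markers were 4 above and 4 below with 2, at 2736 to 6466 in controls, 7514 in knockout 3 and 2567 to 3140 in the other knockouts, and 7 of 8 were below 0 without knockout 3. All 6 enteroendocrine markers had a log2 fold change below 0, with a median of -1.97 and 5 at an unadjusted p under 0.05, and their summed level was 126 to 365 normalized CPM in controls, 135 in knockout 3 and 19.0 to 103 in the other knockouts. Without knockout 3 there were 3 enteroendocrine markers at an unadjusted p under 0.05. Of 6 stem markers 2 were above 0 and 4 below, and 4 of the 6 had an unadjusted p under 0.05, at 703 to 1520 normalized CPM in controls, 273 in knockout 3 and 634 to 952 in the other knockouts. Of the 4 under that p, Axin2 was above 0 (log2 fold change 0.90) and Olfm4, Ascl2 and Slc12a2 were below. Tuft markers were 5 of 5 below 0 with 1, at 148 to 397 and 75.5 to 261, and 4 of 6 tested enterocyte markers were below 0 with 2, at 99.1 to 283 in controls, 72.2 in knockout 3 and 142 to 218 in the other knockouts. Without knockout 3 the markers at an unadjusted p under 0.05 numbered 3 for stem, 1 for tuft and 1 for enterocyte. Of 8 immune markers 3 were tested, all below 0 with 0 at an unadjusted p under 0.05, while without knockout 3 there were 1 above and 2 below with 1. The sum of the 8, 158 to 477 normalized CPM in controls, 631 in knockout 3 and 177 to 235 in the other knockouts, was mostly Lyz2, which Paneth cells also express. The 6 stromal markers summed to 0.395 to 0.940 normalized CPM in controls and 0.587 to 1.40 in knockouts, and 0 were tested. Among these markers the enterocyte gene Alpi had 0 counts in knockouts 1 to 3 and 42 in knockout 4, above the 8 to 19 of the controls. Of the other epithelial markers Neurog3, Pax4, Zg16 and Apoa4 had 0 in knockout 3. The immune genes Cd3e, Cd8a, Cd52 and Jchain had at most 3 counts in every library, Itgae had 0 in knockouts 3 and 4, and each of the 6 stromal markers was at 0 in at least 1 library. The part of these other cell types in the levels of Slc30a1, Slc39a5 and the other zinc genes was not tested.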

How the data were processed

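Libraries were grouped by the genotype of their labels. The authors aligned reads to mm10 with GSNAP and counted uniquely mapped reads on Ensembl release 92 genes with featureCounts 1.6.3, and the deposited values are raw counts. The strand setting is not given in the sources used here. Reads copied by PCR were counted separately, so limits drawn from counts cover counting error only, and p-values measure the spread between these libraries.

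The 92 spike-in sequences were left out, and symbols were matched for 53620 genes. No 2 libraries were alike within sampling noise (smallest chi-square per degree of freedom 12.1). That value was for knockouts 1 and 2, against 37.1 to 201 for the other pairs, so these 2 were the closest pair. The fits treat them as independent, and the reason for their likeness was not tested. In R 4.3.3, edgeR 4.0.16 fitted genotype by quasi-likelihood (TMM, robust) to 13439 genes passing filterByExpr (minimum count 10, minimum total 15), with Benjamini-Hochberg adjustment over all of them. The SE is the log2 fold change divided by the square root of F, and 95% intervals are 1.96 SE to each side. This multiplier is that of the normal distribution, so the intervals are nominal and narrower than the F test implies. Exact two-sided permutation tests used log2 normalized CPM (prior count 1) over 70 assignments, with 40320 pairings for correlations. The 45 pairs planned became 36, as Slc39a7 was not tested. Functions were tested on simulated data.

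The genes, lists and comparisons were chosen with earlier results of these data known. The lists were the other Slc30, Slc39 and metallothionein genes, zinc-sensing and zinc-binding genes, iron and copper transport, stress and glucocorticoid genes, and Paneth, goblet, enterocyte, stem, enteroendocrine, tuft, immune and stromal markers. List genes were named where genotypes did not overlap or the unadjusted p was under 0.05, together with the 3 other family genes highest per kb and, for Mt1, Mt2 and Slc30a2, the 3 genes most correlated with each. Marker and stress genes were given by counts and summed level, and named where a count of 0 or at most 3 is given. Mtf1, Atf3, Slc39a2 and the stem markers Axin2, Olfm4, Ascl2 and Slc12a2 were named after their values were seen. Alternatives were DESeq2 1.42.0 (size factors and Wald test), limma-voom 3.58.1, no filter, library sizes without the 50 most abundant genes, the library set as a block, and each library left out, with list counts without knockout 3 added after the data were seen. Windows before RefSeq starts (GRCm38.p6) were searched on both strands.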

Additional observations from a re-analysis of the deposited data

Results flagged for a closer look

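For each of the 9 tested zinc genes, the 4 libraries of each genotype were checked for a library far from the other 3 (Dixon's ratio of gap to range above 0.829), which chance meets in about 1 of 20 groups. Among 18 groups 2 had such a library. Mt2 in knockout 1 was 5.23 normalized CPM against 1.76 to 2.24 in the other knockouts, with a gap of 0.861 of the range. Slc39a5 in knockout 3 was 4.35 normalized CPM against 2.08 to 2.13 in the other knockouts, with a gap of 0.98 of the range. Knockout 3 is the library with the fewest genes detected, and its part in the Slc39a5 value was not tested.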

How the results depend on the processing

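The 9 tested zinc genes were refitted under 14 alternatives, 8 of them leaving out 1 library, and 0 were called under any. Of 126 log2 fold changes 121 kept their sign, and adjusted p values ranged from 0.366 to 1.00 (edgeR, DESeq2 and limma with Benjamini-Hochberg adjustment). Leaving out 1 library, Mt1 ranged from -0.21 to 0.0648, above 0 without control 3 (0.0648), control 4 (0.01) or knockout 2 (0.01), and Mt2 from -0.0008 (without knockout 1) to 1.02, while Slc30a7 was -0.0568 by limma-voom with quality weights. That method also moved Mt2 to 0.84 from 0.47, Slc30a2 to 0.20 from 0.41 and Slc30a5 to -0.07 from -0.16. The number of zinc genes at an unadjusted p under 0.05 was 0 to 1 and the number with separate genotypes 1 to 2, the gene at that p being Slc39a5 in place of Slc30a1 without knockout 3, and the added separate gene Slc30a5 without knockout 2 and Slc39a5 without knockout 3. Pairs with an adjusted Spearman p of at most 0.05 numbered 1 with all libraries and 0 without knockout 3.

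Over all tested genes 25 were called, against 290 with no filter, 137 by DESeq2's Wald test, 101 by limma-voom with quality weights and 24 with the library set as a block. Leaving out 1 library gave 10 (without control 3) to 126 (without knockout 3). The cause was not tested. Of the 13 other family genes 7 were above 0 with all libraries and 4 without knockout 3, and of the 9 other Slc39 genes 5 and 3. No paired analysis was possible because the labels tie no samples to litters, the genotypes share 1 animal number (control 4 and knockout 4) and replicate numbers given here pair no samples. Depth limits Slc39a7, at most 2 counts, and Mt2, Mt3, Slc30a1 and Slc39a5, under 100 counts in every library, and 4 mice of each genotype leave 95% intervals such as -0.52 to 1.34 (log2) for Slc30a2.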
